A study of Mus musculus with 3 samples.

Results

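Antigen receptor signalling genes of B lymphocytes were examined in bone marrow RNA of castrated C57BL/6 mice. The set comprised 7 genes, Cd79b, Vpreb3, Blk, Bank1, Fcrla, Ms4a1 and Map4k1, which were chosen by their testosterone to placebo ratios on the same 3 arrays that are described here together with their known place in B-cell receptor or pre-receptor signalling. Their ratios are therefore a description, and no p-value is given for them. The genes were found on 8 of the 6039 spots that had a value on all 3 arrays, that is 7 of 3462 genes, and Map4k1 had 2 such spots. A further Fcrla spot had values on 2 arrays, and 0 spots annotated to several genes named one of the 7.

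Treated mice had been castrated at 7 weeks of age and received a testosterone pellet (12.5 mg, released over 60 days) for 4 weeks. Their matched placebo partners were castrated mice that carried a placebo pellet, so both groups lacked the testes and no intact mouse was part of the comparison. All mice were 17 weeks old. Each of the 3 two-colour arrays, T1, T2 and T3, compared 1 treated mouse with its partner (n = 3 pairs), with testosterone in Cy5 on T1 and T3 and in Cy3 on T2. Values are log2 ratios of testosterone to placebo, so that a negative value is lower with testosterone. That direction is likely rather than settled: the design text names testosterone as the experimental channel, but the orientation of each ratio and the base of the logarithm are not stated. Over the 6039 spots the arrays correlated positively in every pairing (r = 0.42 for T1 and T2, 0.49 for T1 and T3, 0.73 for T2 and T3), and the standard deviation of the ratios was 0.32, 0.49 and 0.32 on T1, T2 and T3. The RNA came from pulverized limb bones, which the labels call bone marrow, and a ratio holds no level against which the presence of marrow markers could be checked. In such bulk RNA, fewer B-lineage cells and less RNA per cell cannot be told apart.

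B lymphocytes are made in the marrow from progenitors that rearrange their immunoglobulin genes in steps. A newly made heavy chain first pairs with a surrogate light chain into the pre-B-cell receptor and, once a light chain is made, with that chain into the B-cell receptor. Both receptors signal through the Cd79a and Cd79b chains, whose tyrosine motifs are phosphorylated by Src-family kinases, after which Syk, Btk, adaptors and phospholipase carry the signal to calcium, NF-kappaB and MAP kinases. Production of B cells in mouse marrow is known to rise after castration and to fall again under androgen.

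The RefSeq promoter table of build GRCm38.p6 held 5 start sites for 4 of the 7 genes: Vpreb3, Fcrla, Bank1 and Map4k1, the last with 2 starts. Windows of Cd79b, Blk and Ms4a1 were not used here. The 250 bases before each of these starts are printed 5′ to 3′ on the gene's strand. All 4 genes lay below 0 on every array, as did Cd79b and Blk. Capitals mark matches, on either strand, to the octamer ATGCAAAT, which Oct factors bind, the core CCCNNGGG of Ebf1 sites, the E-box CAGCTG of E2A, the Ets motif AGGAAG and the AP-1 motif TGANTCA. The marked motifs did not overlap.
Vpreb3, chr10:75948050-75948299, plus strand: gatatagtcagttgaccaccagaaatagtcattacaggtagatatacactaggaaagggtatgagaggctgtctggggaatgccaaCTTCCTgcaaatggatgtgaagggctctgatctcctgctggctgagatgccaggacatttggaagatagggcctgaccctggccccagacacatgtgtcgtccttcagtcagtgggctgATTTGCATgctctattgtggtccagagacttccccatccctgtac
Fcrla, chr1:170927584-170927833, minus strand: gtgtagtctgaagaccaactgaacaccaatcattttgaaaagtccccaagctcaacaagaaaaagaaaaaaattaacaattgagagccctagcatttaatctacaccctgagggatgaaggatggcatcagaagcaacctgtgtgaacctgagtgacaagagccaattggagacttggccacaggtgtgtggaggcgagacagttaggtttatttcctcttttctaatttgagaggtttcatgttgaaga
Bank1, chr3:136326067-136326316, minus strand: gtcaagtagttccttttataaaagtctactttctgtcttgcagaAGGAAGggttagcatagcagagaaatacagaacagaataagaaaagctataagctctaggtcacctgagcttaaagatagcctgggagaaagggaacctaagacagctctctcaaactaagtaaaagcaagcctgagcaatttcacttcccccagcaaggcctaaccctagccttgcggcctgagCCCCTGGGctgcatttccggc
Map4k1 start 1, chr7:28981800-28982049, plus strand: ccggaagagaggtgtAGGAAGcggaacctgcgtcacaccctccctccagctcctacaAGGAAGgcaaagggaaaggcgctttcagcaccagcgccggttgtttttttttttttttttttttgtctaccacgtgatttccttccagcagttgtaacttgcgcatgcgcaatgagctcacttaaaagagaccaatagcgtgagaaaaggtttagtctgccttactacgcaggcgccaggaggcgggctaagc
Map4k1 start 2, chr7:28982604-28982853, plus strand: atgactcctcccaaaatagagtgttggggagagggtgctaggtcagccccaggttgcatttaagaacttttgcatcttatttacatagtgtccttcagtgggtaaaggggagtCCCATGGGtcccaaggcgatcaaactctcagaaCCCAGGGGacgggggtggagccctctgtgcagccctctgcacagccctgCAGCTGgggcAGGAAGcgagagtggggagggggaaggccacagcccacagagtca

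The Vpreb3 window held 1 octamer, written ATTTGCAT on the gene's strand, from 45 to 38 bases before the start. Of all 32851 promoter windows of the same length, 1.60% held an octamer. The Vpreb3 window also held 1 Ets motif, as did 29.5% of all windows. Bank1 had an Ebf1 core from 21 to 14 bases before the start and an Ets motif. The second Map4k1 start had 2 Ebf1 cores, an E-box from 55 to 50 bases before the start and an Ets motif, while the first had 2 Ets motifs. Ebf1 cores were in 11.8% of all windows and the E-box in 13.0%. No searched motif was found in the Fcrla window, and the AP-1 motif, held by 6.75% of all windows, was in none of the 5. These matches describe letters in the windows and were not tested for binding.

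Cd79b, a chain of both receptors and the signalling partner of Cd79a, had log2 ratios of -2.13, -2.24 and -1.96 on T1, T2 and T3. All 3 pairs lay close together, with a mean of -2.11 ± 0.14 (SD, n = 3), or 4.32-fold lower. Vpreb3, a small immunoglobulin-like protein of B-cell precursors that associates with the heavy chain during receptor assembly, had -3.35 on T1, -3.37 on T2 and -2.21 on T3 (-2.98 ± 0.66, 7.86-fold lower). T1 and T2 nearly coincided and T3 was less negative by more than 1 log2 unit, the range over the arrays being 1.16. Vpreb3 was the most negative of all 6039 spots on T1 and on T2, and rank 3 on T3. Cd79b was at rank 10, 8 and 6 from the most negative spot on T1, T2 and T3.

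**Figure D1:**
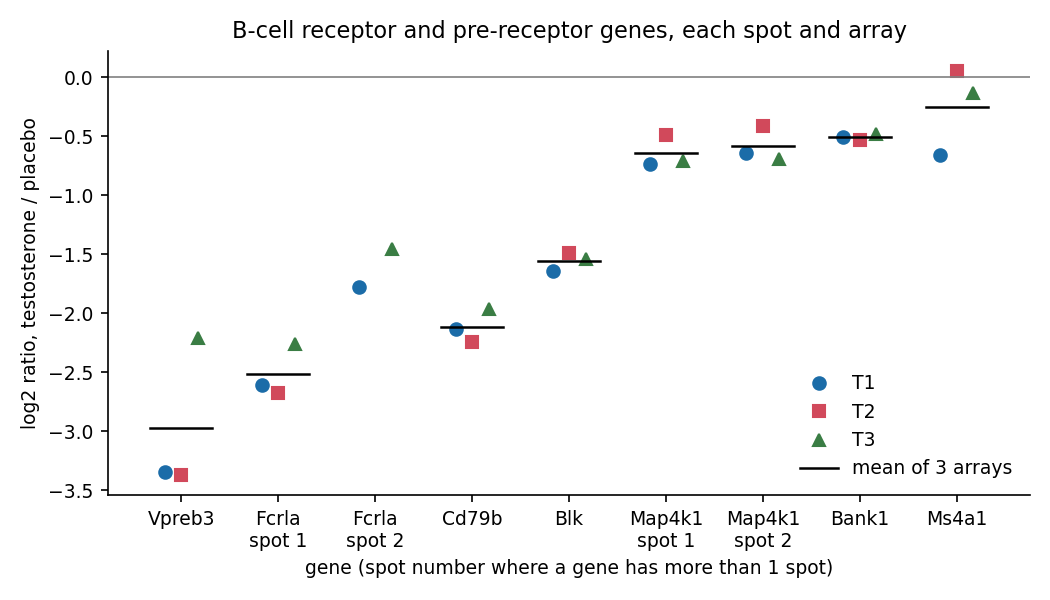
Log2 ratio of testosterone to placebo (y axis) for each spot of the 7 genes (x axis), with 1 point per array (circle T1, square T2, triangle T3) and a bar at the mean of 3 arrays. Every point lies below 0 except Ms4a1 on T2 (0.05), and the second Fcrla spot has no value on T2.

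Blk, the Src-family kinase that is largely confined to the B lineage and phosphorylates the Cd79 tails, had -1.64 on T1, -1.49 on T2 and -1.54 on T3. Its 3 pairs differed by 0.16 at most, and the mean of -1.56 ± 0.08 (SD, n = 3) was 2.94-fold lower. The ranks of Blk from the most negative spot were 18, 27 and 16. It was also the gene closest to the average of the set, at a Euclidean distance of 0.22 from the mean profile of the 7 genes over the 3 arrays, against 1.07 to 2.65 for the others.

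Fcrla, an Fc receptor-like protein that B cells keep inside the cell and that binds immunoglobulin in humans, was represented by a pair of spots from different sequence records. The first spot had -2.61 on T1, -2.67 on T2 and -2.26 on T3 (-2.51 ± 0.22, SD, n = 3, 5.71-fold lower) and ranked 2, 4 and 2. The second, which has no value on T2 and so entered no test, had -1.78 on T1 and -1.46 on T3. It was thus lower with testosterone on both arrays it was measured on, by 3.43-fold and 2.74-fold, and less negative than the first spot by 0.83 on T1 and 0.80 on T3.

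Within the set, the modulators of the receptor signal Map4k1 and Bank1 had ratios closer to 0. This did not hold for modulators outside the set, since the inhibitory receptor Siglecg, described below, had a mean of -1.61. Map4k1, a haematopoietic kinase that restrains antigen receptor signalling in B and T cells, had -0.74 on T1, -0.49 on T2 and -0.71 on T3 at its first spot. Its second spot, annotated to the same sequence record, had -0.64, -0.41 and -0.70 on the same arrays, so that the spots differed by 0.10, 0.07 and 0.01. The gene mean was -0.61 ± 0.14 (SD, n = 3), 1.53-fold lower. T2 was the least negative array at both spots. On T2, where the ratios of all spots were most widely spread, the Map4k1 spots ranked 689 and 990, against 92 and 131 on T1 and 66 and 69 on T3.

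Bank1, a scaffold with ankyrin repeats that links the kinase Lyn to calcium release, had -0.50 on T1, -0.53 on T2 and -0.48 on T3. Its spread of 0.02 (SD, n = 3) around the mean of -0.51 was the smallest in the set, against a median of 0.17 over all genes tested, and the mean was 1.42-fold lower. Its ranks were 240, 546 and 192.

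Ms4a1, the CD20 surface protein that B cells carry from the pre-B stage onwards, stood apart. It had -0.66 on T1, 0.05 on T2 and -0.14 on T3, so that its pairs lay on both sides of 0. The mean of -0.25 ± 0.37 (SD, n = 3) was smaller than the spread between pairs, and without T1 it was -0.04. Its ranks were 122 on T1, 3685 on T2 and 1962 on T3.

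**Figure D2:**
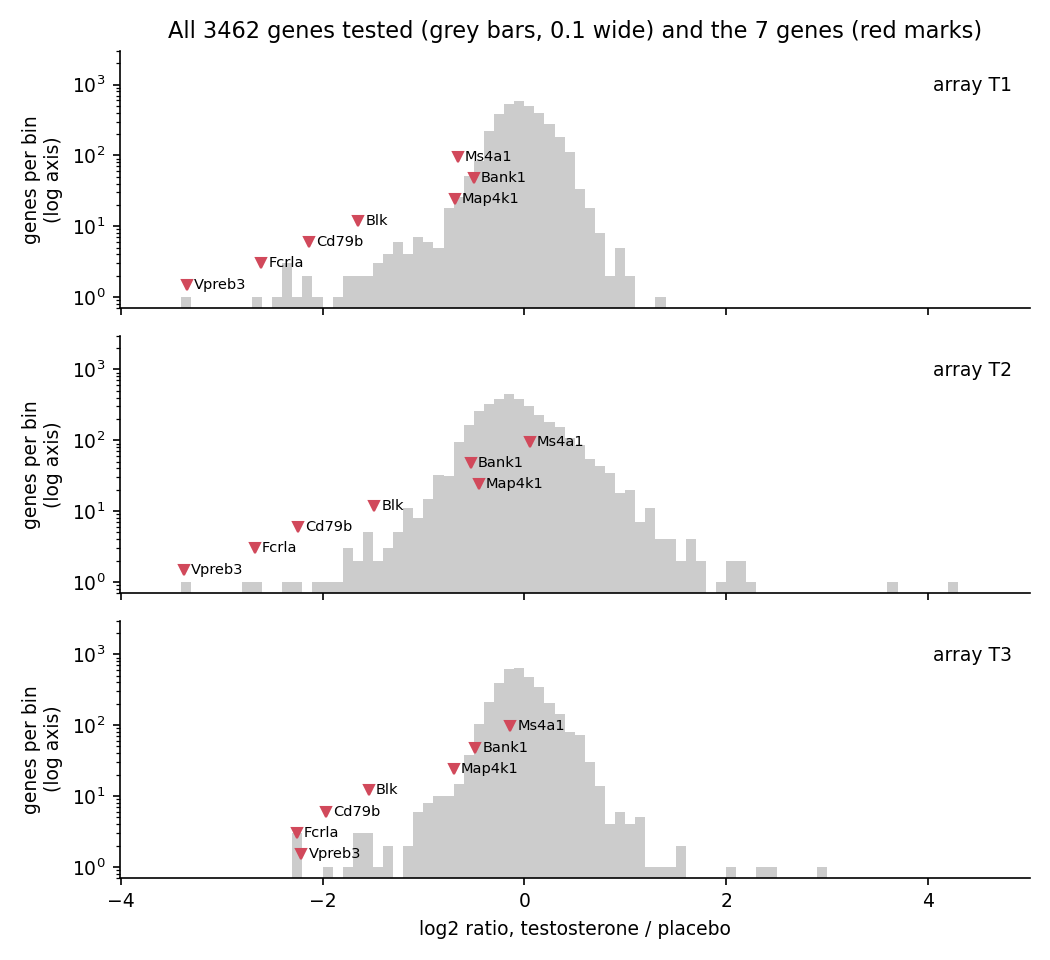
Number of genes per 0.1 of log2 ratio (grey bars, log axis) among the 3462 genes tested on each array, with the 7 genes marked in red; the height of a mark has no meaning. Vpreb3, Fcrla, Cd79b and Blk lie in the sparse lower tail on all 3 arrays, and Ms4a1 lies within the bulk on T2 and T3.

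Ordered by mean ratio from the most negative, the genes were Vpreb3, Fcrla, Cd79b, Blk, Map4k1, Bank1 and Ms4a1. Within the pairs of mice, Cd79b was less negative than the first Fcrla spot by 0.40 ± 0.09, Blk less than Cd79b by 0.56 ± 0.18 and Map4k1 less than Blk by 0.94 ± 0.10 (mean difference ± SD, n = 3), each on all 3 arrays. The other neighbours differed by about their spread or less and changed places on 1 array. Fcrla was less negative than Vpreb3 by 0.46 ± 0.44 and more negative than it on T3, Bank1 less negative than Map4k1 by 0.11 ± 0.16 and Ms4a1 less than Bank1 by 0.26 ± 0.38. The place of Fcrla depends on its spot, since its second spot was less negative than Cd79b on both arrays. Cd79b and Blk had 1 spot each, and these SDs hold the spread between pairs of mice, not that between spots of a gene. Blk was the median of the 7 genes on each array, so that this median was -1.64, -1.49 and -1.54, beside -0.04, -0.12 and -0.06 for all genes tested on T1, T2 and T3.

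In the test against a ratio of 0 (limma, Benjamini-Hochberg over all genes), 6 of the 7 genes were called lower at an adjusted p under 0.05 and Ms4a1 was not. Over all genes, 3.24% were called lower (112 of 3462) and 1.68% higher (58), and over all spots 1.71% (103 of 6039) and 1.13% (68). Since the 7 genes were picked on these ratios, nothing is read from their count, nor from which of their calls hold in the settings below. Bank1 and Map4k1 were not called without T2 or without T3, which left 4 of 7, and Bank1 was not called after median centring. All 6 were called without T1 and with a dye term. If the sign of T2 is reversed, as it would have to be if that array had been deposited in the opposite orientation, 0 of 7 were called and the 7 means lay between -0.73 and -0.15. The split of higher and lower spots moved with scaling, to 4 higher and 53 lower after median centring and to 595 and 221 after centring and scaling, while for genes it was 42 and 58, and 204 and 106.

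**Figure D3:**
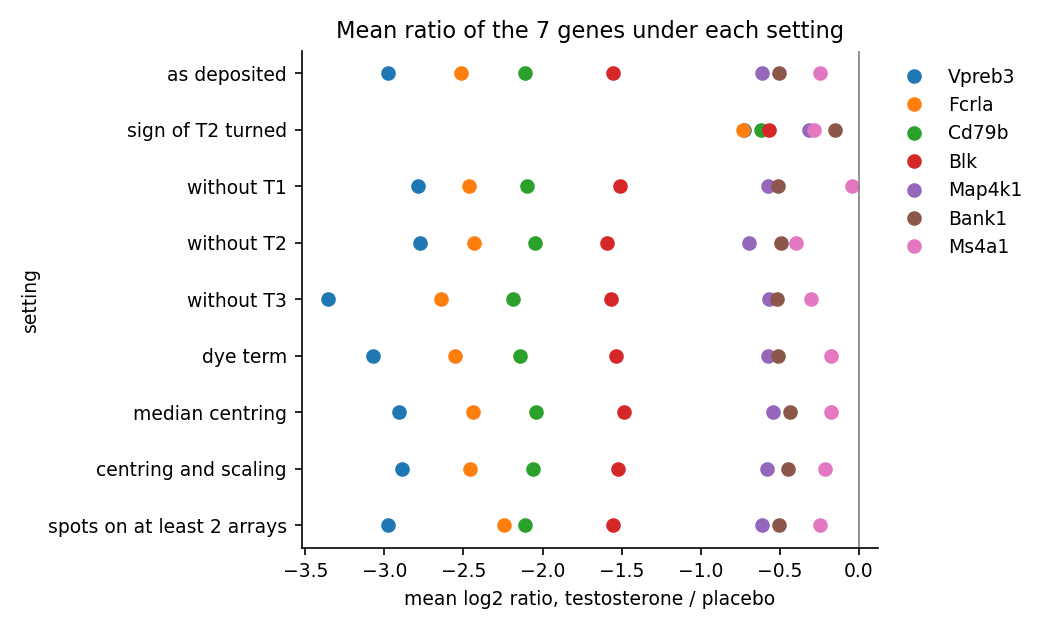
Mean log2 ratio of testosterone to placebo (x axis) for each of the 7 genes (colours) under each setting (y axis). All means stay below 0; with the sign of T2 turned they lie between -0.73 and -0.15, and without T1 that of Ms4a1 is -0.04.

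For the rest of the pathway, lists by role named 123 further genes, of which 42 had a value on all 3 arrays. These lists were drawn up with earlier results of these data known, so that their counts are not independent evidence. Of the 42, 5 fell with testosterone (11.9%, against 3.24% of all genes), and 0 rose by limma. Before adjustment, 14 of the 42 were lower and 4 (Nras, Map3k7, Gab1 and Jun) higher at p under 0.05 by limma. Of all 3462 genes, 556 were lower and 416 higher at that threshold. The median ratio of the 42 was -0.18, beside -0.07 for all genes tested. Of the 42 means, 30 were below 0, the side on which the median of all genes also lay. The 9 immunoglobulin and Cd79a genes of the receptor-chain list, and the surrogate light chain genes Vpreb1, Vpreb2 and Igll1, were not analysed here.

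Of 3 coreceptors and inhibitory receptors or their phosphatases, Siglecg fell. Siglecg, a sialic acid-binding receptor that dampens calcium signals of the B-cell receptor, had -1.61 on T1, -1.55 on T2 and -1.66 on T3 (-1.61 ± 0.06, SD, n = 3, 3.04-fold lower, adjusted p = 0.000206 by limma). All 3 pairs lay within 0.11 of each other, and the call held without any single array. The inositol phosphatase Inpp5d had -0.22, -0.80 and -0.39 on T1, T2 and T3 (-0.47 ± 0.30, adjusted p = 0.0703), and Cd81, a tetraspanin of the cell surface, had a mean of -0.25 ± 0.09 (adjusted p = 0.152).

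Among 3 proximal kinases, Csk, which places the inhibitory phosphate on Src-family kinases, fell, at -0.77, -0.80 and -0.75 on T1, T2 and T3 (-0.77 ± 0.03, 1.71-fold lower, adjusted p = 0.00513 by limma, n = 3). Btk, the Tec-family kinase downstream of Syk, had -0.27 ± 0.12 (adjusted p = 0.145) and the Src-family kinase Fyn 0.07 ± 0.02 (adjusted p = 0.668). Of 5 adaptors, Dok3, an inhibitory adaptor of B cells and macrophages, fell with -0.38, -0.92 and -0.55 on T1, T2 and T3 (-0.61 ± 0.27, 1.53-fold lower, adjusted p = 0.045). The adaptors Gab1 (0.29 ± 0.12, adjusted p = 0.117) and Lat2 (0.17 ± 0.07, adjusted p = 0.299) were above 0 on every array without passing.

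Further downstream, Nfkbie, an inhibitor that holds NF-kappaB in the cytoplasm, fell among 8 genes of the NF-kappaB branch, at -0.97, -0.81 and -0.42 on T1, T2 and T3 (-0.73 ± 0.29, 1.66-fold lower, adjusted p = 0.0273 by limma, n = 3). In the same branch the kinase Map3k7 had 0.45 ± 0.37 (adjusted p = 0.103) and the inhibitor Nfkbia -0.50 ± 0.48 (adjusted p = 0.114), with 0.06 on T3. Map3k1, a kinase upstream of JNK, fell among 10 genes of the MAP kinase branch, with -0.58, -0.48 and -0.64 (-0.57 ± 0.08, 1.48-fold lower, adjusted p = 0.0277). Nras (0.48 ± 0.33, adjusted p = 0.0746) and Jun (0.66 ± 0.85, adjusted p = 0.158) did not pass, and Jun was at -0.30 on T1 and 1.29 on T2.

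The remaining branches had 0 calls by limma. Of 8 lipid enzymes and exchange factors, Akt1 (-0.56 ± 0.33, adjusted p = 0.0555, n = 3) and the GTPase Rhoa (-0.31 ± 0.10, adjusted p = 0.102) had the smallest p. Of 5 calcium and NFAT genes, the calmodulin genes Calm2 (-0.29 ± 0.08, adjusted p = 0.114) and Calm3 (-0.16 ± 0.11, adjusted p = 0.336) did. Without T2 or without T3 the calls of Csk (adjusted p = 0.0516 and 0.103), Dok3 (0.223 and 0.273), Nfkbie (0.204 and 0.0652) and Map3k1 (0.119 and 0.273) were lost, and that of Dok3 also after median centring (0.0535). With T2 turned all 5 calls were lost (adjusted p = 0.999 each).

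**Figure D4:**
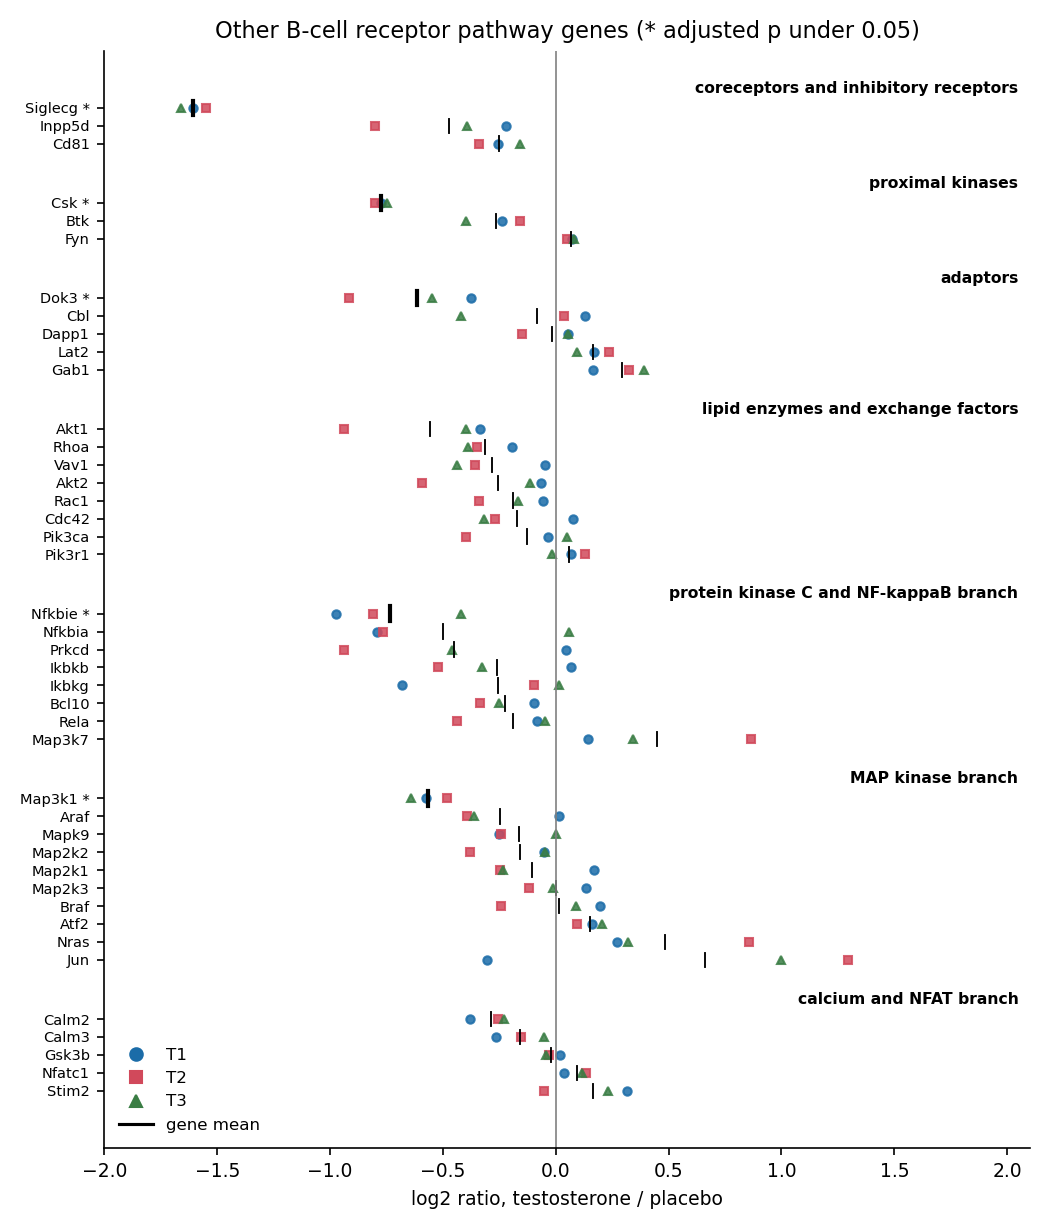
Log2 ratio of testosterone to placebo (x axis) of the 42 other B-cell receptor pathway genes measured on all arrays, grouped by role (y axis), with 1 point per array and a tick at the mean, thick with an asterisk where the adjusted p is under 0.05. Siglecg at -1.61 is the most negative of them, and the other 4 called genes lie between -0.77 and -0.57.

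Of genes of the same protein families outside the 7, 8 were measured on all 3 arrays, with means from -0.21 to 0.17, and 0 were called by limma in either direction. The Src-family kinases Fyn and Src had 0.07 ± 0.02 and -0.05 ± 0.19 (SD, n = 3), beside -1.56 for Blk. Map4k4 and Map4k5, kinases related to Map4k1, had -0.21 ± 0.20 and 0.08 ± 0.17. Ms4a4b and Ms4a4c, relatives of Ms4a1, had 0.17 ± 0.24 and 0.09 ± 0.06. Fcer1g, the signalling chain of Fc receptors on myeloid cells, had 0.44, -0.24 and -0.11 on T1, T2 and T3. The differences between the 7 genes and their relatives were not tested, because the 7 genes were picked on their ratios.

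Across the cell types of marrow and bone, the list of B-lineage regulators and markers outside the 7 genes had 7 of 11 measured genes called lower, 0 called higher and medians of -1.26, -0.97 and -0.83 on T1, T2 and T3. That is 63.6% lower, against 3.24% of all genes, for a list drawn up with earlier results known. The 7 were Bach2, Pou2af1, Il7r, Sox4, Foxo1, Tcf3 and Btg1, with means from -2.47 for Bach2, a transcriptional repressor of B cells, to -0.65 for the antiproliferative gene Btg1. Pou2af1, the coactivator that Oct factors recruit at octamers, had -2.48, -2.07 and -1.65 on T1, T2 and T3. Il7r, the interleukin-7 receptor chain on which early B-cell growth in mouse marrow depends, had -2.08, -2.34 and -1.09. T3 was the least negative array for all 7 called genes of this list. It was so for Vpreb3, Fcrla, Cd79b and Bank1 as well, but not for Blk, Map4k1 and Ms4a1. The transcription factors Sox4 (-1.82 ± 0.44, adjusted p = 0.00105), Foxo1 (-1.22 ± 0.19, adjusted p = 0.00127) and Tcf3, which encodes E2A (-1.03 ± 0.23, adjusted p = 0.00333), were below 0 on all 3 arrays. The Sox4 value rests on 1 spot. When spots on at least 2 arrays were included, its mean was closer to 0, at -1.25 (adjusted p = 0.0158 by limma). The means of the 4 genes not called were all above 0. They were 0.09 ± 0.09 for the chemokine receptor Cxcr5, which had the smallest p of them (adjusted p = 0.566 by limma, n = 3), 0.10 ± 0.25 for Cd52, 0.09 ± 0.17 for Cd24a and 0.03 ± 0.59 for Cd83. Of the calls, that of Btg1 was lost without T2 and without T3 (adjusted p = 0.168 and 0.146) and that of Il7r without T2 (0.0611).

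Markers of other cell types were measured on the same arrays, and their part in the ratios of the 7 genes was not tested. Of 5 neutrophil genes 0 were called, and their medians were 0.60, 0.11 and -0.15 on T1, T2 and T3, with the integrin Itgam at 0.33 ± 0.42 (SD, n = 3). Of 9 monocyte and macrophage genes 0 were called (medians 0.30, 0.01 and 0.12), of 6 erythroid genes 0 (0.11, 0.38 and 0.33), of 3 plasma cell genes 0 (0.04, -0.51 and -0.02) and of 2 megakaryocyte genes 0 (-0.30, -0.32 and -0.23). The 6 skeletal muscle genes (-0.02, -0.84 and -0.43) and the 4 osteoblast and matrix genes (0.01, -1.08 and -0.22) were lowest on T2, with the collagen Col6a1 the single call (-0.81 ± 0.22, adjusted p = 0.0107 by limma, n = 3), which was lost without T2 and without T3 (0.107 and 0.17). Their other genes of smallest p were the myosin light chain Mylpf (-0.69 ± 0.52) and the matrix protein Sparc (-0.50 ± 0.50). Means in the remaining lists were 0.33 ± 0.09 for the phagocyte receptor Mertk, 0.35 ± 0.23 for the haemoglobin gene Hbb-b1, 0.35 ± 0.22 for Ccr9 of dendritic cells, -0.16 ± 0.30 for the plasma cell factor Xbp1 and -0.44 ± 0.19 for the platelet integrin Itga2b, each the smallest p of its list and none called. For T cells and natural killer cells, 0 listed genes had a value on all 3 arrays, so that Map4k1, which T cells also express, cannot be set beside them.

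Outside the 7 genes, the profiles nearest to their mean (-1.65 on T1, -1.53 on T2, -1.33 on T3) by Euclidean distance over the 3 arrays were those of Ablim1, Siglecg, Serinc5, Lrmp and Myl4, at distances of 0.34, 0.34, 0.36, 0.36 and 0.41. Ablim1, an actin-binding LIM protein, had -1.73, -1.26 and -1.13, and Serinc5, a membrane protein of the serine incorporator family, had -1.41, -1.33 and -1.16. Lrmp, a lymphoid-restricted membrane protein, had -1.41, -1.77 and -1.42, and the myosin light chain Myl4 had -1.85, -1.28 and -1.06. Euclidean distance takes in the size of a ratio as well as its pattern over the arrays.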

How the data were processed

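The 3 two-colour arrays of bone marrow RNA were deposited as one table of signed values per spot, which are read here as log2 ratios. That base was taken from how far the deposited values reach (-3.37 to 4.47); with a natural log every fold would be larger. No source used here gives the scaling, the background correction or the direction, and the deposited log2 values were used without further normalization; column medians were 0.007, -0.062 and -0.025. No spot brightness was used, so weak spots could not be told apart from bright ones. The number of arrays limits the precision.

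Of 11552 spots, 8050 were annotated to 1 gene, 672 to several and 2830 to none; 7880 were matched by Entrez ID to current symbols in the RefSeq table of GRCm38.p6. After 12 control or non-mouse spots were left out, 6039 spots measured on every array entered a two-sided test against 0 (limma 3.58.1, lmFit and eBayes, R 4.3.3). A call was a Benjamini-Hochberg adjusted p under 0.05. Spots of a gene were averaged per array and the 3462 genes tested likewise; the fit was tested on simulated data. The members and lists were chosen with earlier results of these data known. Named were all spots of the members, in each pathway or family list every called gene and the 2 others of smallest p, in each cell type list every called gene and the 1 other of smallest p, and the 5 nearest profiles. Alternatives were the sign of T2 turned, each array left out, median centring with or without scaling, a term for the dye, spots on at least 2 arrays, robust eBayes and a threshold of 0.10. The labels pair each treated with 1 placebo mouse, so each ratio stands for 1 pair. eBayes draws the variance of each gene towards a value shared over all genes. The p-values therefore do not rest on a gene's own spread between pairs alone. Jun, at 0.66 ± 0.85, had an unadjusted p of 0.0385 by limma.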

Additional observations from a re-analysis of the deposited data

How the results depend on the processing

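With the sign of T2 turned, spots, genes and pathway genes had 0 calls in either direction, with 8 spots higher and 12 lower at an unadjusted p under 0.05 by limma, and the median of the 7 genes was -0.57 against -1.56. In the other alternatives run that median stayed within the spread between arrays. Lower spots numbered 103 as deposited, 38 to 413 with an array left out, 524 with a dye term, 53 after median centring, 221 after centring and scaling and 441 at 0.10; higher spots numbered 68, and 0 to 682, 785, 4, 595 and 724. Lower genes numbered 112 as deposited, 32 to 333 with an array left out, 205 with a dye term and 58 after median centring; higher genes numbered 58, and 1 to 290, 180 and, after centring and scaling, 204. Of the 3 arrays, leaving out T1 gave the most calls. Pathway genes called lower numbered 5, and 1 to 10 with an array left out and 8 with a dye term; those called higher numbered 0, and 0 to 3, 2 and, after centring and scaling, 1. All 7 means kept their sign. Every gene but Ms4a1 was below 0 on all 3 arrays, so leaving out an array could not change the sign of its mean. Of the means of single members under an alternative, 49 moved by less than the SD between arrays and 9 by more. The latter were every member but Ms4a1 with T2 turned, Fcrla at -2.24 with its second spot, and Bank1. Bank1 was at -0.44 after median centring and -0.45 after centring and scaling. Some of the 49 could not move, since spots on at least 2 arrays added a spot for Fcrla alone. The causes were not tested. Each ratio is already taken within a pair, so the test against 0 is itself the paired comparison, and there is 1 group. The 3 arrays limit what small ratios, such as that of Ms4a1, can show.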

Other observations

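Several genes of the B-cell receptor pathway had values on 1 or 2 arrays and entered no test. Blnk, the adaptor that links Syk to phospholipase and that Map4k1 binds, had -0.50 on T1 and -0.87 on T2. Cd22, an inhibitory receptor related to Siglecg, had -0.86 and -0.60 at a pair of spots on T1, and Fcrl1, a surface relative of Fcrla, had -0.75 on T1. The complement receptor Cr2 had -0.12 on T1 and 0.01 on T3. The NF-kappaB subunit Nfkb2 lay between -0.04 and -0.28 at 2 spots on T1 and T3, the exchange factor Vav2 had 0.50 on T1, and the calcium channel Itpr2 had -0.28 on T1. The MAP kinase Mapk8 had -0.31 and -0.26, and the MAP kinase kinase Map2k6 had -0.40 and 0.01, each at a pair of spots on T1. Outside the pathway lists, the Src-family kinase Yes1 had 0.10 and 0.09 at its spots on T1.

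Of genes that mark B cells by stage, chosen here after their values were seen, Lef1, a factor of pro-B cells, had -1.72 on T1 and -1.32 on T2. Fcer2a, the low-affinity IgE receptor of mature B cells, had 0.00 and 0.01 at its spots on T1 and -0.30 and -0.50 on T3, and Cxcr5 of mature B cells had 0.01, 0.18 and 0.08 on T1, T2 and T3. Ccr7, a homing receptor of mature lymphocytes, had -1.06 on T1, the single array that measured it. The other partly measured genes of the B-lineage list were Ikzf1, at 0.51 on T1, and Ltb, at 0.285 on T1 and -0.24 on T3. Cd24a, of the same list and measured on every array, had -0.09, 0.10 and 0.25 on T1, T2 and T3. A pattern by stage was not tested.

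Of T-cell markers, Cd247, the zeta chain of the T-cell receptor, had -0.16 on T1 and -0.45 on T2, Cd4 had -0.35, Zap70 0.04 and Thy1 0.13 on T1, and Gata3 had 0.15 and 0.86 at a pair of spots on T1. Il2rb, of T and natural killer cells, lay between 0.05 and 0.32 on T1 and T3.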
